A study of Mus musculus with 25 samples.

Results

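The cluster described here holds the testis cells that the authors' clustering named Diff_L_Z_SGs2, the second of a pair of clusters whose names join differentiating spermatogonia with leptotene and zygotene spermatocytes. It is called the second mixed cluster below. Its members were taken from the deposited cell table by that name alone, and they number 846 of 4528 cells. Knockout (KO) library A held 335 of them, KO library B 510, and the wild-type (WT) library 1. Both KO libraries lack Ythdc2, an RNA helicase with an m6A-binding YTH domain, and all 3 libraries are single-cell RNA-seq of cells with 4N DNA content sorted from testes at postnatal day 10. WT carries no Ythdc2 mutation per its label. Titles add the word embryo beside P10, and the age label was followed. The mutant lines of the study were made in C57BL/6 and DBA/2 hybrid embryos, and the sources used here do not say which part of the gene the KO allele lacks, nor whether the KO libraries came from separate animals. As WT is 1 library, its genotype cannot be told apart from its library in any comparison.

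Male germ cells divide by mitosis as spermatogonia, then answer retinoic acid by switching on Stra8 and enter meiosis. After a last round of DNA replication, meiotic prophase opens with leptotene and zygotene, when chromosomes build protein axes, are cut by SPO11 and begin to pair through the synaptonemal complex, while mitotic cyclins and spindle genes are kept low. In mice without YTHDC2, germ cells start this programme and then go into a premature division.

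The second mixed cluster made up 22.0% of KO A cells (exact 95% interval 19.95 to 24.2) and 27.5% of KO B cells (25.5 to 29.6), against 0.0869% of WT cells (0.0022 to 0.483). Its single WT cell was called a doublet by Scrublet, as were 1 of 335 cells in KO A and 14 of 510 in KO B, and only the KO cells were used for levels. These cells were among the deeper ones of their libraries, below only the undifferentiated cluster in median depth. Their median was 16097 UMIs (counted transcript molecules) in KO A and 16152.5 in KO B, against 8146.5 and 8560 in the first mixed cluster, 9667 and 11793.5 in the Diff_SGs cluster of differentiating spermatogonia, and 12203 in WT leptotene-zygotene cells. Their median mitochondrial share was 4.73% and 4.28%, against 10.4% and 9.02% in the first mixed cluster, 9.79% and 7.03% in Diff_SGs and 5.50% in WT leptotene-zygotene cells. The part that depth and mitochondrial share have in the differences below was not tested beyond the alternatives named. No cell barcode was shared between libraries.

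Levels below are counts scaled to a common library total (CPM) of the UMIs summed over a library's cells in a cluster. A gene is called higher or lower where log2((CPM + 1)/(CPM + 1)) reached 1 in the same direction in both KO libraries, among genes averaging 20 CPM or more in 1 of the clusters compared. The cells were clustered on these same genes, so the calls describe the cluster and no test was made. The difference between the KO libraries was small beside this threshold, but it may hold no variation between animals, as separate animals are not stated. Within the second mixed cluster the KO libraries differed by a median of 0.087 in absolute log2 and by less than 0.285 for 95% of 6718 genes, and 1 gene was higher in KO A and 1 in KO B at a log2 of 1, which is 0.0149% each. These were the predicted genes Gm8797 (153 and 35.9 CPM) and Gm10260 (1.82 and 132 CPM), named after their values were seen.

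Ythdc2 itself stood at 35.3 CPM in KO A and 34.9 CPM in KO B, against 266 CPM in WT leptotene-zygotene cells and 170.0 CPM in WT Diff_SGs. Both values lay below those of the first mixed cluster (61.5 and 64.0 CPM) and of KO Diff_SGs (50.4 and 44.2 CPM). Of its partners, Meioc, which binds YTHDC2, had 576 and 565 CPM, against 365 and 401 CPM in KO Diff_SGs and 699 CPM in WT leptotene-zygotene cells, log2 differences of 0.66 and 0.49 from Diff_SGs and -0.28 and -0.31 from WT. Rbm46, another RNA-binding partner, and Xrn1, the 5' to 3' exoribonuclease, were not called against Diff_SGs, the first mixed cluster or WT leptotene-zygotene cells.

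Of the 4 marker genes given for the cluster, 3 passed the filter and all 3 were higher than in Diff_SGs. Stra8, the retinoic acid target needed for meiotic entry, had 2185 CPM in KO A and 1997 CPM in KO B. It had 1175 and 1089 CPM in the first mixed cluster, 451 and 568 CPM in KO Diff_SGs and 1658 CPM in WT leptotene-zygotene cells. The second mixed cluster thus held the highest Stra8 level of the clusters compared, with log2 differences of 2.27 and 1.81 from Diff_SGs and of 0.40 and 0.27 from WT leptotene-zygotene cells. Reep5, a membrane-shaping protein of the endoplasmic reticulum, had 257 and 230 CPM, against 196 and 189 CPM in the first mixed cluster, 27.1 and 20.7 CPM in KO Diff_SGs and 26.3 CPM in WT leptotene-zygotene cells. It was higher than in WT leptotene-zygotene cells by a log2 of 3.24 and 3.08. The undifferentiated cluster also held it, at 152 and 159 CPM in the KO libraries and 191 CPM in WT, and Reep5 was not called against that cluster. Gnpda2, a glucosamine-6-phosphate deaminase, had 103 and 99.4 CPM, against 49.8 and 55.3 CPM in the first mixed cluster, 29.8 and 34.9 CPM in KO Diff_SGs and 62.0 CPM in WT leptotene-zygotene cells. Mospd1 averaged just under the filter, at 23.1 and 16.7 CPM, against 2.74 and 3.03 CPM in KO Diff_SGs.

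**Figure D1:**
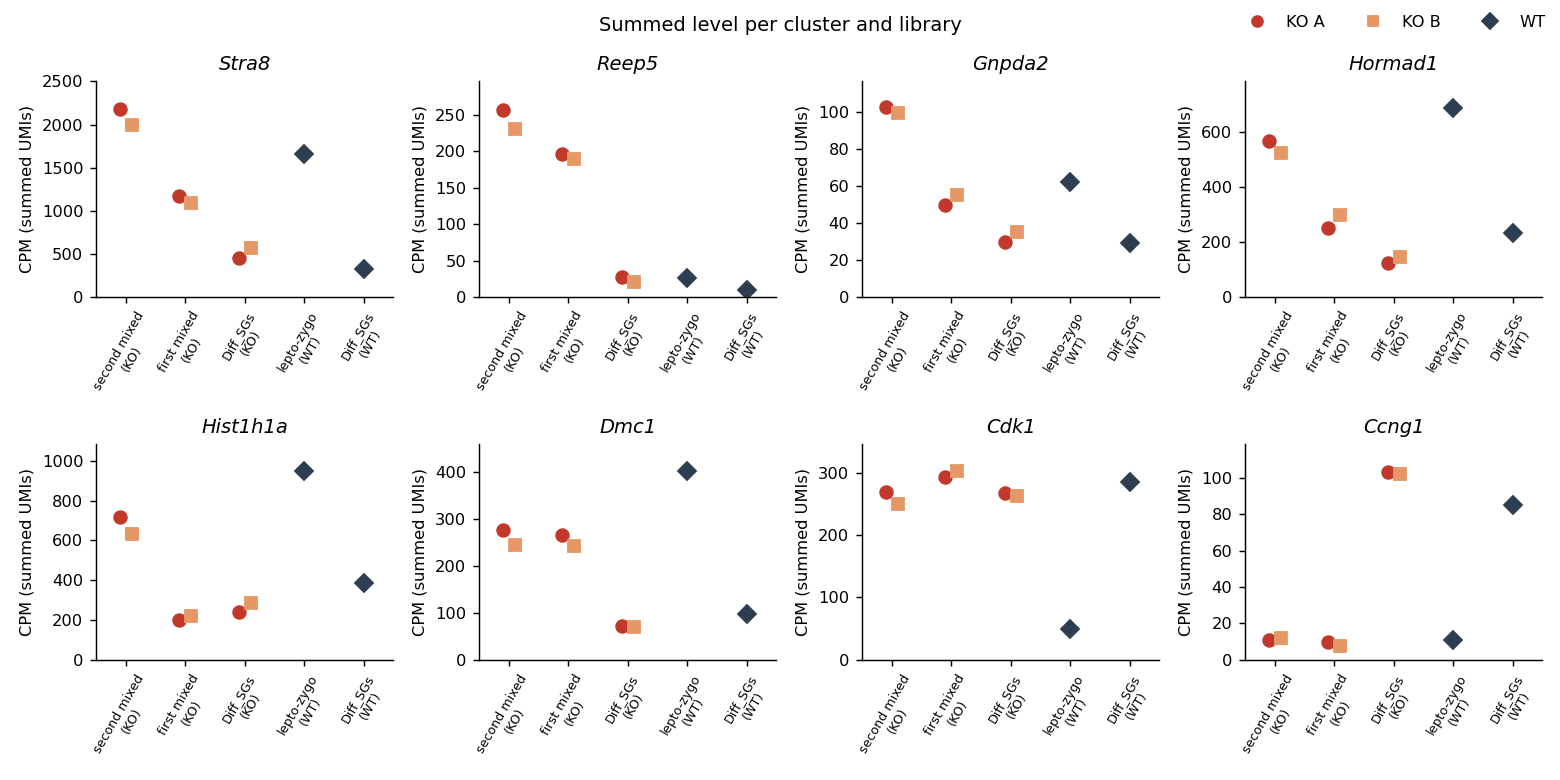
Summed level (CPM, linear axis from 0) of 8 genes by cluster, with a point for each library. Stra8, Gnpda2 and Hormad1 are highest among KO clusters in the second mixed cluster, Reep5 and Dmc1 are close to the first, Cdk1 is low in WT leptotene-zygotene cells alone, and Ccng1 is high in Diff_SGs of both genotypes.

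Against the Diff_SGs cluster of the same libraries, 340 of 7231 genes were higher in the second mixed cluster (4.70%) and 221 were lower (3.06%). Many genes of meiotic prophase were among the higher ones. In the list of synaptonemal complex, meiotic cohesin, axis and telomere-attachment genes, 11 of 18 were higher and 0 lower, with a median log2 difference of 1.32 (KO A) and 1.22 (KO B). All genes past the filter had medians of -0.05 and -0.01. Sycp3, a lateral element protein of the synaptonemal complex, had 935 and 1092 CPM, against 235 and 315 CPM in Diff_SGs. Hormad1, an axis protein that binds unsynapsed chromosomes, had 567 and 523 CPM, against 122 and 146 CPM. Rad21l, a meiosis-specific cohesin subunit, had 28.4 and 20.7 CPM, against 6.12 and 5.52 CPM. Sycp1, the transverse filament protein, was already at 759 and 880 CPM in Diff_SGs and had 1400.1 and 1397 CPM in the second mixed cluster, a log2 difference of 0.88 and 0.67 that was not called. 

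Of the recombination list, 16 of 23 measured genes passed the filter, and 8 were higher and 0 lower, with a median of 1.01 and 1.03. Dmc1, the meiotic strand-exchange recombinase, had 276 and 244 CPM, against 71.7 and 70.0 CPM in Diff_SGs. Hfm1, a helicase needed for crossovers, had 84.7 and 61.4 CPM, against 15.5 and 10.2 CPM. Msh5, a crossover protein of the MutS family, had 44.1 and 42.0 CPM, against 11.1 and 12 CPM. Levels differed widely within the list. Ankrd31, needed for break formation, had 119 and 115 CPM, against 72.7 and 76.5 CPM, and was not called. Spo11, which makes the breaks, had 2.55 and 2.41 CPM, against 1.61 and 0.624 CPM, and Meiob, a single-strand DNA-binding protein, had 12.4 and 8.78 CPM, against 0.483 and 0.267 CPM, so neither passed the filter. In the list of meiotic entry genes, 3 of 8 were higher and 0 lower: Stra8, Gm4969 (Meiosin, the partner of STRA8) and Prdm9, the histone methyltransferase that marks recombination hotspots. Gm4969 had 26.9 and 22.3 CPM, against 6.12 and 6.50 CPM in Diff_SGs. Rec8, a meiotic cohesin subunit on the same list, had 89.0 and 83.0 CPM, against 131 and 112 CPM, and was not called. It was 1 of 3 genes of that list below 0 in both libraries. Ythdc2, which the list also holds, was another.

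Promoter stretches of 3 genes that were higher than in Diff_SGs and of Cdk1, which was not called, are shown for comparison. Each line gives the 120 bases before the RefSeq start (GRCm38.p6), read 5' to 3' on the gene's strand, with capitals marking the letters searched for: CACGTG (an E-box) in Hormad1 and Sycp3, CCAAT in Stra8, and CCAAT and TTTGAA (the CHR letters of cell cycle promoters) in Cdk1, on either strand. Stra8 lies at chr6:34920828-34920947 on the plus strand, Hormad1 at chr3:95559557-95559676 on the plus strand, Sycp3 at chr10:88459467-88459586 on the plus strand, and Cdk1 at chr10:69352913-69353032 on the minus strand.
Stra8: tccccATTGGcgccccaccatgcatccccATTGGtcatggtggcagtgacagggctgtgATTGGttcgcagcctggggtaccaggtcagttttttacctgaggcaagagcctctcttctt
Hormad1: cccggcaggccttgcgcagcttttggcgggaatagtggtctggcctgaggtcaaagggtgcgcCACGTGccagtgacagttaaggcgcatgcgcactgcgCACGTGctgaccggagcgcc
Sycp3: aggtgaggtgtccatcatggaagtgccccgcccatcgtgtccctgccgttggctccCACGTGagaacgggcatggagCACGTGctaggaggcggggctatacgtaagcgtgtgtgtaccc
Cdk1: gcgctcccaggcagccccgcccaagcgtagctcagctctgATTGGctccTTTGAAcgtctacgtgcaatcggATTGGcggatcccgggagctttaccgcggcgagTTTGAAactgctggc

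In the 250 bases before the start, CACGTG was present in 7 of 33 meiotic prophase promoters (21.2%), against 6.05% of 27025 promoters in the RefSeq table and 9.80% of those of genes past the filter. CCAAT was present in 18 of 21 M-phase promoters (85.7%) and in 11 of 33 meiotic prophase promoters (33.3%), against 34.5% of all promoters. TTTGAA was present in 7 of 21 M-phase promoters (33.3%), against 16.3% of all promoters. A match describes the letters only. Among all 259 promoters found for the 340 genes higher than Diff_SGs the shares were 7.72% for CACGTG and 34.7% for CCAAT, against 9.80% and 37.6% of genes past the filter.

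The largest differences above Diff_SGs were led by genes outside the meiotic lists. Pparg, a nuclear receptor of lipid metabolism, had 27.7 and 22.0 CPM, against 0.967 and 0.624 CPM in Diff_SGs, and Rbpms2, an RNA-binding protein, had 155 and 124 CPM, against 13.4 and 10.8 CPM. Spdya, a cyclin-like activator of CDK2 that acts at meiotic telomeres, had 97.6 and 78.6 CPM, against 9.18 and 7.13 CPM. Naa20, an N-terminal acetyltransferase subunit, the Polycomb-group gene Pcgf6 and the homeobox gene Pbx3 followed, with log2 differences between 2.61 and 3.17. Mybl1, the A-MYB transcription factor of spermatocytes, had 81.2 and 70.6 CPM, against 12.4 and 13.7 CPM. All 4 antigen-presentation genes past the filter were higher, in a list chosen after their values were seen. Against the first mixed cluster 0 of the 4 were called, and against WT leptotene-zygotene cells 1 was higher and 2 were lower. The 7 measured genes of the list summed to 633 and 499 CPM, against 575 and 475 CPM in the first mixed cluster. In WT leptotene-zygotene cells they summed to 1390 CPM, so a raised level was not particular to the second mixed cluster. H2-D1, a class I heavy chain, had 39.9 and 68.0 CPM, against 4.67 and 8.82 CPM in Diff_SGs, and B2m, the class I light chain, had 60.8 and 62.0 CPM, against 9.18 and 7.75 CPM. Tubb5, a beta-tubulin, had 248 and 210 CPM, against 48.0 and 31.4 CPM. Tubulins have close paralogs, and the sources used here do not say how reads were divided among them.

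Among the 221 lower genes, Ccng1, a cyclin G gene induced by p53, stood at 10.7 and 12 CPM, against 103 and 102 CPM in Diff_SGs. Of the list of p53 and its targets, 9 genes passed the filter and 4 were lower and 0 higher. Beside Ccng1 these were Trp53 itself (26.2 and 28.8 CPM, against 67.8 and 65.7 CPM), the growth arrest gene Gadd45a, and the exonuclease gene Aen at log2 differences of -1.01 and -1.02. With edgeR's TMM factors 2 of the 9 were lower. Sox11 and Grhl1, transcription factors, had 6.37 and 5.90 CPM and 2.73 and 4.21 CPM, against 44.0 and 41.0 CPM and 25.8 and 21 CPM in Diff_SGs. Zbtb16, a factor of undifferentiated spermatogonia, had 13.3 and 13.4 CPM, against 35.1 and 33.9 CPM. The number of lower genes depended on the library: it was 460 with KO A alone and 228 with KO B alone, and 362 where cells of 8000 to 14000 UMIs were compared. Phgdh and Shmt2, enzymes of serine and one-carbon metabolism, were lower as well, the only 2 of 7 genes past the filter on the ATF4 stress list.

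No gene of the M-phase list was called against Diff_SGs, though most leaned lower. Of 25 M-phase genes, all past the filter, 0 were higher and 0 lower, with median log2 differences of -0.35 and -0.29, and 19 of them were below 0 in both libraries. Cdk1, the mitotic kinase, had 269 and 250 CPM, against 267 and 262 CPM in Diff_SGs, and Ccnb2, one of its B-type cyclins, had 186 and 189 CPM, against 196 and 181 CPM. Ccnb1, the other main B-type cyclin, had 223 and 262 CPM, against 454 and 460 CPM, log2 differences of -1.02 and -0.81. Plk1, the polo kinase of mitotic entry, had 226 and 252 CPM, against 424 and 366 CPM. Summed over the list, M-phase transcripts took 8703 and 9244 CPM, against 10395 and 11148 CPM in Diff_SGs, a log2 difference averaging -0.26. The 41 genes of meiotic prophase took 9524 and 9374 CPM, against 4614 and 4798 CPM, averaging 1.01. The replication list was called for 3 of 20 genes, all higher: Ccne2, an E-type cyclin, the GINS subunit gene Gins2 and the ribonucleotide reductase subunit gene Rrm2. Of the other lists, 0 of 6 retinoic acid pathway genes and 0 of 11 cytochrome c oxidase subunit genes were called, 1 of 12 piRNA genes (Gtsf1, of the piRNA pathway) and 1 of 8 immediate early genes (Fos) were higher, and of 8 genes of differentiating spermatogonia 2 were higher and 1, Dmrtb1, was lower.

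**Figure D2:**
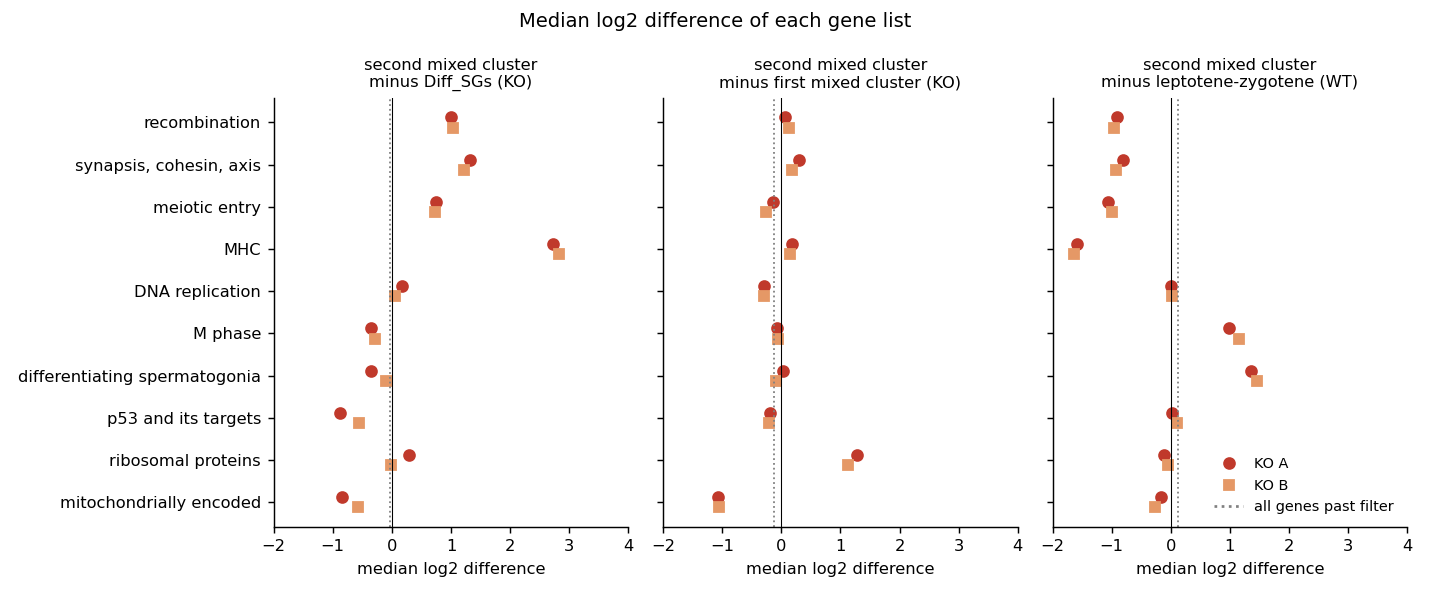
Median log2 difference of each gene list (x axis) between the second mixed cluster and Diff_SGs, the first mixed cluster, and WT leptotene-zygotene cells, with circles for KO A and squares for KO B and a dotted line at the median of all genes past the filter. Meiotic lists lie to the right against Diff_SGs and to the left against WT spermatocytes, M-phase genes lie to the right against WT spermatocytes, and ribosomal protein and mitochondrially encoded genes stand apart against the first mixed cluster.

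Between the second and first mixed clusters no gene of the meiotic or M-phase lists was called, while many ribosomal protein genes were. Against the first mixed cluster, 75 of 7043 genes were higher (1.06%) and 11 were lower (0.156%). Of 81 ribosomal protein genes past the filter, 53 were higher and 0 lower, with a median log2 difference of 1.27 in KO A and 1.12 in KO B. Rps27, of the small subunit, had 1762 and 1833 CPM, against 303 and 363 CPM in the first mixed cluster. Rpl32, of the large subunit, had 3117 and 3110.2 CPM, against 693 and 812 CPM. Ribosomal protein genes together took 11.8% and 12.4% of UMIs, against 4.72% and 5.48% in the first mixed cluster. The share in the second mixed cluster was near those of KO Diff_SGs (9.69% and 12.4%) and WT leptotene-zygotene cells (13.0%), and against Diff_SGs 1 of 81 ribosomal protein genes was called, Rps4x. Many of these genes have near-identical processed copies, and their counts are uncertain where reads could be split among them.

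Of the 11 genes lower than in the first mixed cluster, 8 were mitochondrially encoded, among them mt-Nd4 at 3226 and 3013 CPM, against 7954 and 7185 CPM. The others were AY036118, Gm26699 and Malat1, a nuclear noncoding RNA, named after their values were seen. With cells restricted by depth or mitochondrial share, most of the 75 higher genes stayed and most of the 11 lower genes did not. Among cells of 8000 to 14000 UMIs, which kept 96 and 131 cells of the second mixed cluster, 65 genes were higher and 9 lower. Of these, 57 and 3 were among the 75 and the 11. Among cells with under 10% mitochondrial UMIs 67 were higher, 66 of them among the 75, and 2 lower. That limit selects cells on the same transcripts as the 8 mitochondrially encoded genes. The part of depth and mitochondrial share was not tested. With TMM factors 5 were lower, all of them among the 11.

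Meiotic and mitotic lists had 0 calls in either direction between the mixed clusters. The summed meiotic prophase level was still higher in the second, at 9524 and 9374 CPM, against 7430 and 7675 CPM in the first. The M-phase sum was close, at 8703 and 9244 CPM, against 8910 and 9353 CPM. For M-phase genes the median was -0.08 and -0.06, or 0.05 and 0.07 with TMM factors. For synapsis and cohesin genes the median was 0.30 and 0.19, against -0.14 and -0.12 over all genes. Single meiotic genes leaned either way. Hormad1 had 567 and 523 CPM, against 249 and 296 CPM in the first, Syce3, a central element protein, had 100.1 and 102 CPM, against 44.2 and 54.6 CPM, and Tex12, another central element protein, had 291 and 276 CPM, against 156 and 167 CPM. Rec8 had 89.0 and 83.0 CPM, against 126 and 108 CPM in the first, and Stag3, a meiotic cohesin subunit, had 198 and 203 CPM, against 288 and 270.3 CPM. Of the meiotic entry list, 5 of 8 genes, Ythdc2 among them, were below 0 in both libraries, with medians of -0.15 and -0.26. Dmc1 was close in both, at 276 and 244 CPM, against 265 and 243 CPM. One gene was higher by a log2 of 1 or more than in every other KO cluster at once. This was Hist1h1a, a replication-dependent linker histone H1, with 715 and 633 CPM, against 198 and 218 CPM in the first mixed cluster, 237 and 284 CPM in KO Diff_SGs and 949 CPM in WT leptotene-zygotene cells. After it came Rps27, Syce3, Stra8, Gnpda2, Rmdn1, Hormad1 and the X-linked homeobox gene Rhox1, whose smaller log2 difference from the nearest cluster lay between 0.82 and 0.90.

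The undifferentiated cluster was farther off, with 1073 of 7933 genes higher (13.5%) and 1194 lower (15.1%) in the second mixed cluster. With TMM factors 1397 were higher and 995 lower. All 11 undifferentiated spermatogonia genes past the filter were lower, and 17 of 18 synapsis and cohesin genes were higher. The undifferentiated cluster held 1547 and 1799 CPM of the 11 myoid and stromal markers in the KO libraries, and their part in these counts was not tested. The second mixed cluster held 6.74 and 6.14 CPM of them, with Col3a1 and Igf1 at 0 in both libraries. Its 3 blood and immune markers summed to 2.55 and 0.963 CPM, against 444 CPM in Diff_SGs of KO A, and its 2 endothelial markers to 0.728 and 0.722 CPM, and the Leydig marker Star had 2.00 and 1.80 CPM. The 9 Sertoli markers summed to 148 and 158 CPM, of which Ctsl gave 132 and 134 CPM, Trf was at 0 in both and Sox9 had 3 UMIs in each.

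Set beside WT leptotene-zygotene cells, the second mixed cluster held more mitotic transcripts and fewer of most meiotic ones. Of 6934 genes, 629 were higher (9.07%) and 225 lower (3.24%), or 478 higher and 360 lower with TMM factors. The share of calls that were higher was 73.7%, and 57.0% with TMM factors, which moved the median of all genes to -0.04 and -0.05. Of the M-phase list 12 of 25 were higher and 0 lower, with medians of 0.99 and 1.15, against 0.12 and 0.12 over all genes, and 11 were higher with TMM factors. Plk1 had 226 and 252 CPM, against 41.0 CPM in WT, and Cdk1 had 269 and 250 CPM, against 48.4 CPM. Ccnb1, Ccnb2, Ccna2, Aurka, Aurkb, Birc5, Cdc20, Kif20a, Nusap1 and Ube2c were the other genes called. Bub1, a spindle checkpoint kinase, went the other way without a call, at 418 and 405 CPM, against 610 CPM in WT, and Top2a, the topoisomerase of chromosome condensation, was level at 1223 and 1268 CPM, against 1316 CPM. Genes of differentiating spermatogonia were among the higher ones: 5 of 8 past the filter were higher and 0 lower, among them Kit, the stem cell factor receptor, at 64.1 and 69.7 CPM, against 20.8 CPM, and Dmrtb1, a DMRT-family regulator of the switch from mitosis to meiosis, at 105 and 113 CPM, against 18.8 CPM.

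On the meiotic side 6 of 18 synapsis and cohesin genes, 9 of 20 recombination genes and 5 of 9 meiotic entry genes were lower than in WT spermatocytes, and 0 of any of these lists were higher. The meiotic entry list holds Ythdc2, the gene the KO lacks, and Ythdc2 is among its 5 lower genes. Spo11 had 2.55 and 2.41 CPM, against 20.4 CPM, Meiob 12.4 and 8.78 CPM, against 52.8 CPM, and Rad21l 28.4 and 20.7 CPM, against 149 CPM. Terb1, which ties telomeres to the nuclear envelope, had 33.5 and 33.6 CPM, against 134 CPM. Most members leaned lower: 17 of 18 synapsis and cohesin genes were below 0 in both libraries and 1 above, and of the recombination genes 15 were below and 5 above. The medians were -0.81 and -0.93 for synapsis and cohesin and -0.92 and -0.96 for recombination, against 0.12 and 0.12 over all genes. Smaller differences were seen for Sycp3 (935 and 1092 CPM, against 1296 CPM), Hormad1 (567 and 523 CPM, against 684 CPM) and Mybl1 (81.2 and 70.6 CPM, against 87.8 CPM). In sum the 41 meiotic prophase genes took 9524 and 9374 CPM, against 14263 CPM, and the 25 M-phase genes 8703 and 9244 CPM, against 5768 CPM. The genes farthest above WT were of neither programme. Cox7b, a cytochrome c oxidase subunit, had 228 and 238 CPM, against 9.57 CPM, with 209.9 and 213 CPM in KO Diff_SGs and 52.2 CPM in WT Diff_SGs. Of 11 subunit genes, 2 were called, Cox7b and Cox8a. Prdx3, a mitochondrial peroxidase, had 51.0 and 46.1 CPM, against 2.02 CPM, and Tuba1b, an alpha-tubulin, 82.6 and 78.2 CPM, against 3.50 CPM. Farthest below were Eaf2, an elongation factor partner, at 27.3 and 28.0 CPM, against 225 CPM, Ythdc2 itself and Maoa, a monoamine oxidase, at 3.46 and 3.85 CPM, against 30.5 CPM.

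The step from Diff_SGs to the second mixed cluster in KO was then set beside the step from Diff_SGs to leptotene-zygotene cells in WT, which shares no library with it. In WT 812 of 6952 genes were higher after the step (11.7%) and 1037 lower (14.9%). The WT step was called in 1 library, an easier rule than the KO step, which had to pass in both KO libraries. With KO A alone 459 genes were higher and 460 lower in the KO step, and with KO B alone 378 and 228. Of the 340 genes higher in the KO step, 265 were also higher in the WT step, which is 77.9% of the KO genes and 32.6% of the WT genes. Of the 221 lower genes 161 were also lower in WT, 72.9% of the KO genes and 15.5% of the WT genes. No gene past the filter in both steps was called in opposite directions. Tuba1b differed by 1.60 and 1.69 in the KO step and by -1.91 in the WT step. Its WT levels were under the filter of 20 CPM, so it had no call in WT. The 812 genes had a median log2 difference of 0.89 and 0.85 in the KO step, against 1.44 in the WT step, and the 1037 lower genes -0.73 and -0.56, against -1.39. Spo11 differed by 0.44 and 1.07 in KO and by 2.50 in WT, Cdk1 by 0.01 and -0.07 in KO and by -2.53 in WT, and Reep5 by 3.20 and 3.42 in KO and by 1.34 in WT.

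**Figure D3:**
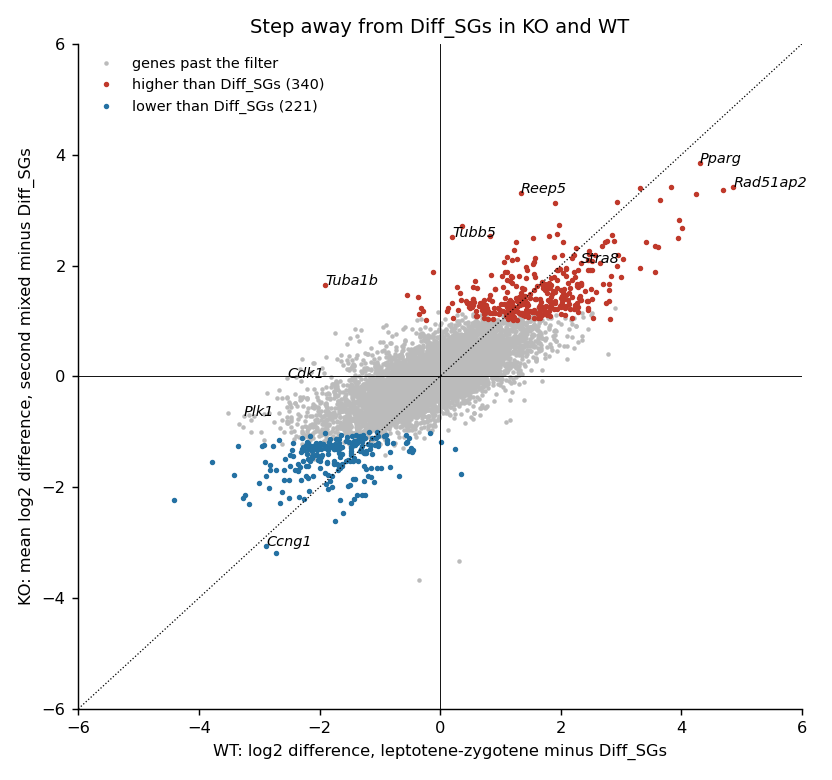
Log2 difference of each gene past the filter in the KO step (y axis, mean of the KO libraries, second mixed cluster minus Diff_SGs) and in the WT step (x axis, leptotene-zygotene minus Diff_SGs), with the 340 higher genes in red, the 221 lower genes in blue and a dotted line of equal differences. Stra8 and Pparg lie near the line, Cdk1 and Plk1 lie left of it near or just below 0, and Reep5, Tubb5 and Tuba1b lie above it.

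Genes on the X chromosome were 27 of the 322 higher genes with a known chromosome (8.39%) and 5 of 215 lower genes (2.33%), against 239 of 7060 genes past the filter (3.39%) in the comparison with Diff_SGs. X-linked genes took 2.60% of UMIs in both KO libraries, against 2.15% and 2.23% in KO Diff_SGs and 2.58% in WT leptotene-zygotene cells. The authors' gene table scores each gene for a U-rich motif. The median score was 0.014 for the higher genes and 0.012 for the lower genes, against 0.014 for all genes past the filter.

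To compare cells of unequal depth, each cell was thinned to 5000 UMIs, which left out no cell. A cell of the second mixed cluster then held a median of 39 M-phase UMIs in KO A (5th to 95th percentile 16 to 78) and 45 in KO B (17.5 to 75.0), against 50.0 and 55.0 in KO Diff_SGs and 26.0 in WT leptotene-zygotene cells (13.3 to 53.7). The cells were spread about equally widely in both libraries, with lowest values of 6 and 5 and highest of 96 and 92. Meiotic prophase UMIs were more even, with medians of 47.0 (33.0 to 68.3) and 46.0 (31.0 to 69.5), against 23.0 and 23.5 in KO Diff_SGs and 71.0 in WT leptotene-zygotene cells. In the first mixed cluster the median was 37.0 in both KO libraries. The Fano factor, the variance over the mean, was 9.41 and 7.97 for the M-phase sum and 2.79 and 3.72 for the meiotic sum, against 5.57 and 4.69 in WT leptotene-zygotene cells. For the M-phase sum it was 9.49 and 9.18 in the first mixed cluster, 6.97 and 7.06 in KO Diff_SGs and 13.5 and 17.1 in the undifferentiated cluster, so the wide spread was not particular to the second mixed cluster. The median cell showed 16 and 17 of 25 M-phase genes and 17 and 16 of 41 meiotic genes.

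A cell was counted as above both limits where its M-phase sum passed 53.7 UMIs, the 95th percentile of WT leptotene-zygotene cells, and its meiotic sum passed 23 UMIs, that of undifferentiated cells. In the second mixed cluster 110 of 335 KO A cells (32.8%, exact 95% interval 27.8 to 38.1) and 188 of 510 KO B cells (36.9%, 32.7 to 41.2) were above both. The share was 30.9% and 37.0% in the first mixed cluster, 23.8% and 29.4% in KO Diff_SGs and 42.5% in WT Diff_SGs. Cells above both limits were thus found in Diff_SGs of both genotypes too. In WT leptotene-zygotene cells it was 5.15%, a value fixed by the choice of limit and no measured contrast. The M-phase limit is their own 95th percentile, and all of them passed the meiotic limit. Most other cells of the second mixed cluster passed the meiotic limit alone, 66.9% and 62.0%, and 0 of 335 and 4 of 510 passed the M-phase limit alone, against 111 of 529 and 188 of 814 in KO Diff_SGs. The share above both limits follows the limits chosen: its mean over the KO libraries was 34.8%, 48.0% with limits at the 90th percentile and 7.70% at the 99th. These intervals cover counting error only.

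**Figure D4:**
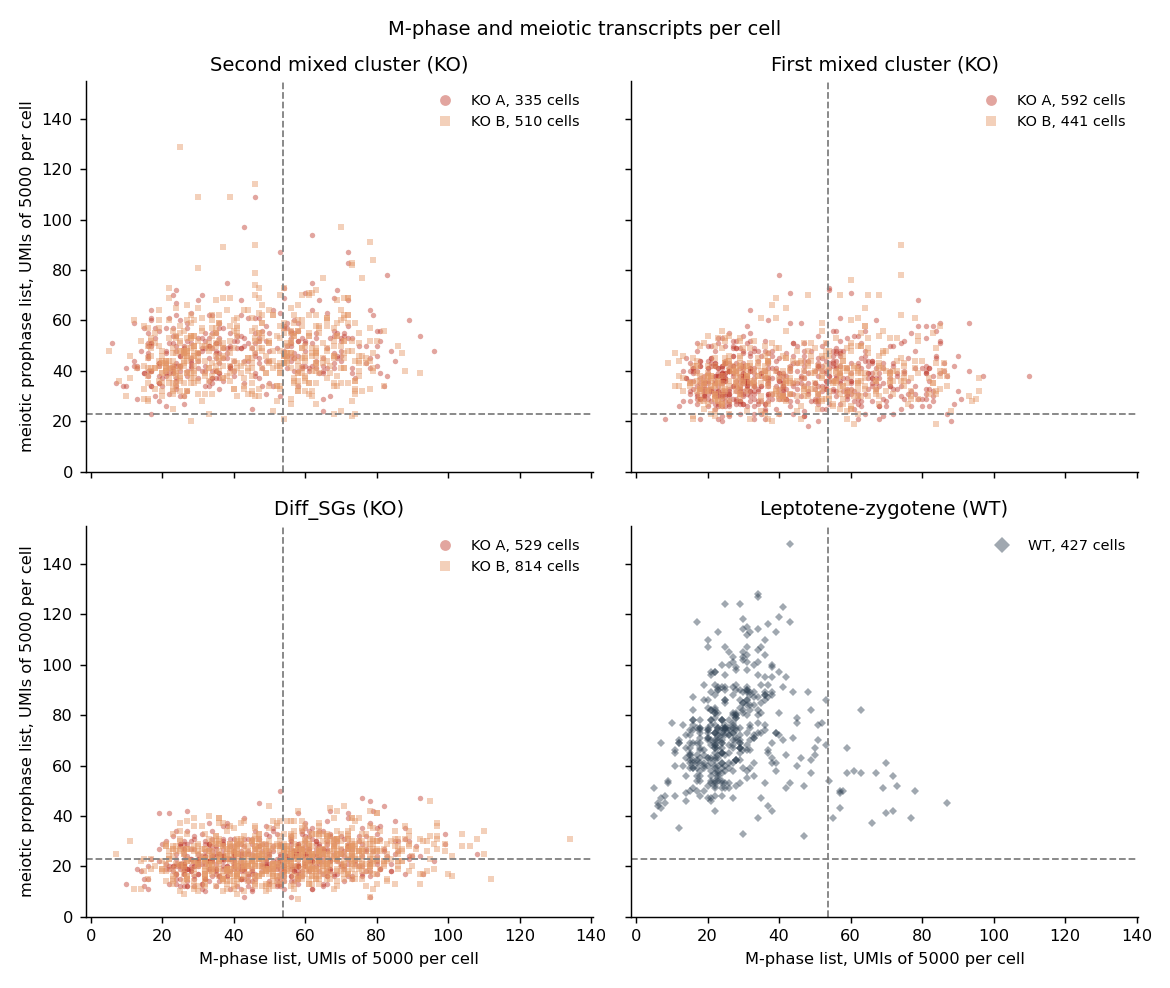
M-phase UMIs (x axis) and meiotic prophase UMIs (y axis) of each cell after thinning to 5000 UMIs, in 4 clusters, with dashed lines at the 2 limits. Cells of the second mixed cluster fill the range from 5 to 96 M-phase UMIs at a meiotic level between those of KO Diff_SGs and WT leptotene-zygotene cells.

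Across cells the sums of both programmes were only weakly related, with Spearman's rho of 0.22 in KO A (335 cells) and 0.10 in KO B (510 cells), and nothing is read from so weak a relation. Both sums come from the same cells and move with depth: rho with a cell's UMI total was 0.26 and 0.18 for the M-phase sum and -0.12 and -0.29 for the meiotic sum. Without thinning rho averaged 0.60. Cells above the M-phase limit had a median of 50.0 and 47.0 meiotic UMIs, against 46.0 and 46.0 in the cells at or below it.

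Detection of Plk1, Ccnb1, Stra8 and Dmc1 was much like that in the first mixed cluster, while other genes differed. Plk1 had a UMI in 50.1% and 56.1% of thinned cells (71.6% and 77.3% before thinning), against 9.84% in WT leptotene-zygotene cells, and 80.5% and 75.8% in KO Diff_SGs. Ccnb1 was seen in 47.8% and 55.1%, against 12.4% in WT leptotene-zygotene cells. In the first mixed cluster Plk1 was seen in 56.1% and 58.3% of thinned cells, Ccnb1 in 51.2% and 53.1%, Stra8 in 99.2% and 98.0%, and Dmc1 in 71.6% and 68.7%. Hormad1 was seen in 91.9% and 88.2% of cells of the second mixed cluster, against 66.6% and 72.8% in the first. Rec8 went the other way, at 29.9% and 33.7%, against 46.6% and 44.4% in the first. Not every mitotic gene was scarce in WT leptotene-zygotene cells. Bub1 was seen in 93.0% of them, against 80.0% and 84.7% in the second mixed cluster, and Top2a in 99.3%, against 95.2% and 96.1%. Mki67 was seen in 67.7%, against 85.4% and 91.4%. Cdk1, Ccnb2 and Ccna2 were each seen in a smaller share of WT cells, as Plk1 and Ccnb1 were. For Plk1 and Ccnb1, WT spermatocytes, at a median of 12203 UMIs before thinning, serve here as the low reference. For meiotic genes the undifferentiated cluster, at medians of 17540.0 and 18149.5 UMIs in the KO libraries, has that part. Stra8 was seen in 99.7% and 99.8% of cells, against 36.4% and 36.7% there, Sycp3 in 98.8% and 98.0%, against 39.4% and 43.3%, and Dmc1 in 74.3% and 69.0%, against 13.6% and 13.3%. Cdk1 and Dmc1 were seen in the same cell in 46.0% and 40.8% of cells, against 48.5% and 45.8% in the first mixed cluster, 18.3% and 19.4% in KO Diff_SGs and 12.4% in WT leptotene-zygotene cells. The products of their single shares were 46.4% and 39.5%, close to the joint shares.

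The most variable genes among the cells included mitochondrially encoded and histone genes, beside others such as Gm42418, Actb and Malat1. The highest of the M-phase list were Cenpf, at rank 13, and Ube2c, at rank 15. Over 2277 genes with a mean of 0.5 thinned UMIs or more, the median Fano factor was 1.06 in both libraries. After mt-Co3, Hist1h1a ranked second, with Fano factors of 4.95 and 4.68 and a range from 0 to 24 and 0 to 21 UMIs per cell. Hist1h2aa, a testis histone H2A, had 3.62 and 3.82, and Arl6ip1, a shaper of the endoplasmic reticulum, 3.38 and 3.34. These 3 genes sorted the cells. The rho with the M-phase sum was -0.68 and -0.64 for Hist1h1a, -0.65 and -0.68 for Hist1h2aa, and 0.74 and 0.72 for Arl6ip1, which is no member of the M-phase list. With the meiotic sum they were -0.24 and -0.09, -0.14 and -0.07, and 0.18 and 0.04. Stra8, ranked 20 by Fano factor, leaned to cells with fewer M-phase transcripts, at -0.27 and -0.26, while Sycp1 leaned to cells with more, at 0.35 and 0.29. Plk1 and Ccnb1, each set against the list without itself, had 0.61 and 0.61, and 0.62 and 0.57.

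**Figure D5:**
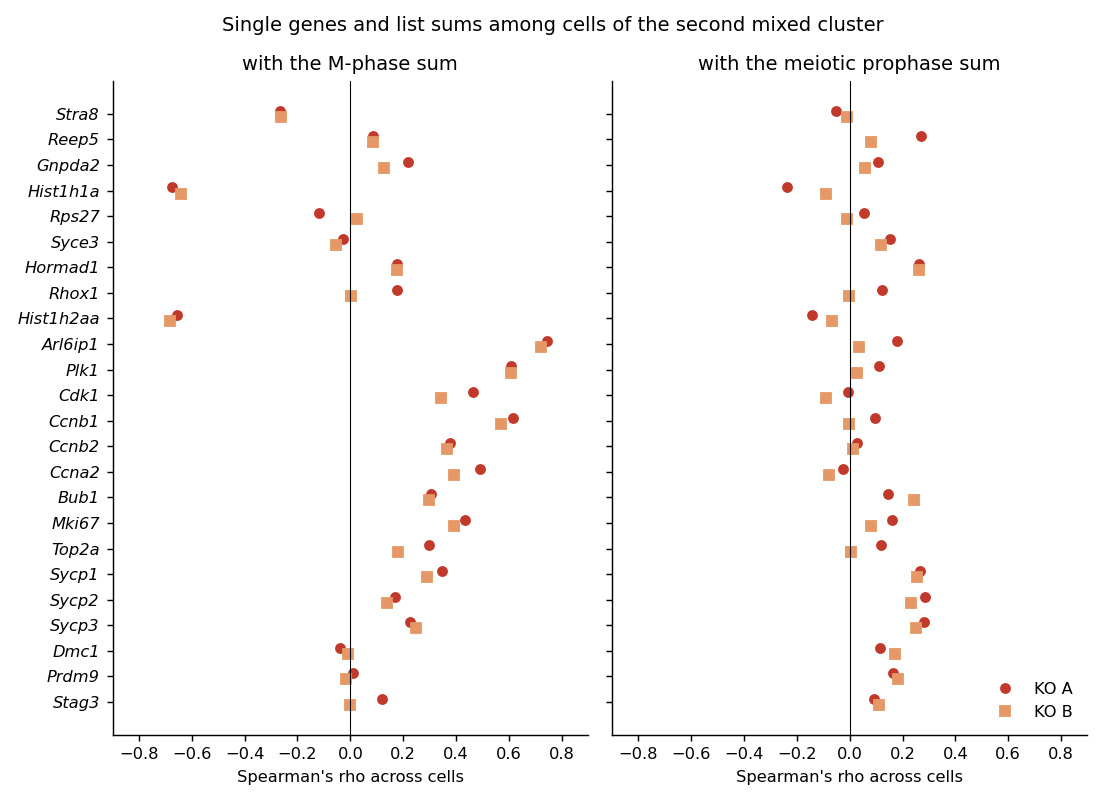
Spearman's rho across cells of the second mixed cluster (335 in KO A, 510 in KO B) between the thinned UMIs of a gene and the M-phase sum (left) or the meiotic prophase sum (right), each sum without the gene itself. Histone genes Hist1h1a and Hist1h2aa lie between -0.68 and -0.64 on the left, Arl6ip1, Plk1 and Ccnb1 at 0.57 to 0.74, and the genes on the right lie closer to 0.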

How the data were processed

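Single-cell RNA-seq values of 2 KO libraries and 1 WT library were read as the authors deposited them, as natural log values of 1 plus the count over a cell's size factor; Cell Ranger 3.0.2 and Scanpy are named in the submitters' processing notes, with builds mm10 and GRCm38. Whole counts were recovered from the deposited values for 100.0% of entries (within 0.001), over 14103 genes and 4528 cells, and held 99.9% of the deposited UMI totals. The deposited table also gave the cluster names, the mitochondrial fraction and a U-motif score per gene, as the authors made them, and a log2 sum per cell over U-motif genes, deposited by the authors and not used in any comparison. Cells deposited had at least 3000 genes and at most 20.0% mitochondrial UMIs. Another 10 columns of the cell table and the other assays of the series were not used here. The KO libraries could not be tied to single KO samples and are called KO A and KO B.

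Counts were summed per library and cluster and scaled to CPM. Log2 ratios used a pseudocount of 1 CPM, and the fold rule was run on simulated data. Those data held counting error only, with the same profile in both KO libraries and planted differences above the limit. They say nothing of genes near the limit or of variation between libraries. Library totals were 18089957 UMIs in KO A, 25447581 in KO B and 16342955 in WT. For cells, counts were thinned to 5000 UMIs (seed 7). Doublets were called with Scrublet (Scanpy 1.11.5) and kept, with an alternative without them. NumPy 2.4.6, pandas 2.3.3, SciPy 1.17.1 and, for TMM factors as an alternative, edgeR 4.0.16 in R 4.3.3 were used. Promoters came from RefSeq (GRCm38.p6).

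Named genes were those with the largest smaller-of-both-libraries log2 difference in each comparison, predicted genes left out, the cluster's given markers, list members past the filter, a fixed set of mitotic and meiotic genes, and the most variable genes. Members and lists were chosen with earlier results of these data known.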

Additional observations from a re-analysis of the deposited data

Results flagged for a closer look

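Tuba1b, an alpha-tubulin gene, moved in opposite directions in the KO and WT steps. It differed by 1.60 in KO A and 1.69 in KO B on the log2 scale between the second mixed cluster and Diff_SGs, and by -1.91 between leptotene-zygotene cells and Diff_SGs in WT. The WT levels were low, 3.50 CPM in leptotene-zygotene cells and 15.9 CPM in Diff_SGs, and the gene has near-identical paralogs. The difference between the steps was not tested, and with 1 WT library genotype and library cannot be told apart.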

How the results depend on the processing

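No paired analysis was possible because no result comes from a test and the single WT library allows no more than 1 pair; clusters of KO cells were compared within each library. Of the recomputed values 124 stayed close to the reported one and 46 moved, and neither summed level changed sign. A gene count was close within a fixed fold range of the reported count. A sum, share or rho was close within the standard deviation of the 2 KO libraries. By that rule the sums, share and rho of 1 KO library alone had to stay close, and they are among the 124. The balance of calls did turn: 1397 genes were higher and 995 lower than in the undifferentiated cluster with TMM factors, and with no filter more genes were lower than higher against Diff_SGs. At a fold limit of log2 0.58, 886 genes were higher and 795 lower than in Diff_SGs, 233 and 149 than in the first mixed cluster, 2035 and 1807 than in the undifferentiated cluster, and 1482 and 649 than in WT leptotene-zygotene cells. With a filter of 5 CPM the lower counts were 472, 17, 2512 and 346 in that order, and 1134 were higher than in WT; with no filter they were 625, 22, 3017 and 472, with 559 higher than in Diff_SGs and 1345 than in WT. TMM factors gave 5 lower than in the first mixed cluster and 360 lower than in WT. With them the M-phase sum differed by -0.19 from Diff_SGs and 0.47 from WT, and the meiotic sum by 1.08 and -0.77. The M-phase difference from Diff_SGs was -0.31 without mitochondrial genes in the totals, -0.30 without ribosomal protein genes too (meiotic sum against WT -0.63), -0.24 without the deepest cells (meiotic against WT -0.58) and -0.32 in cells under 10% mitochondrial UMIs, where 2 genes were lower than in the first mixed cluster. In cells of 8000 to 14000 UMIs, 362 genes were lower than in Diff_SGs, the M-phase sum differed by -0.40, the meiotic sum by 1.14 and -0.56, and 44.0% of cells were above both limits. That share was 29.9% at 3000 UMIs, 31.5% unthinned, 29.3% without the deepest cells, 48.0% and 7.70% with limits at the 90th and 99th percentiles, and the unthinned correlation was 0.60. With 1 KO library alone, 228 to 460 genes were lower than in Diff_SGs and 17 in either case lower than in the first mixed cluster. The causes were not tested. Restrictions on depth and mitochondrial share were chosen after seeing the data.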
